A study of Rattus norvegicus with 10 samples.

Results

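The genes described here are 10 genes of antigen presentation and of the immunoproteasome in rat liver: the proteasome subunit genes Psmb8, Psmb9 and Psmb10, the proteasome activator genes Psme1 and Psme2, the peptide transport and loading genes Tap1, Tap2 and Tapbp, the class I light chain gene B2m, and the class II invariant chain gene Cd74. Their probe sets were those annotated with exactly 1 gene symbol that was one of these names. This gave 13 probe sets of 31042 on the array, with 1 probe set for each of 7 genes and a pair of probe sets for each of B2m, Tap1 and Psme1. Of the 13, 12 passed the filter on low signal and were tested. The filter required a mean log2 value above the 40th percentile of all probe sets, which is an intensity of about 61.1. The probe set that did not pass was the dimmer one of Tap1.

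The liver RNA of 10 Wistar/ST rats was hybridised, 1 rat to each Affymetrix array. The mulberry group was 5 rats given dried mulberry leaf at 500 mg/kg per day for 7 weeks. The control group was 5 rats given 0 mg/kg per day for the same time. Both groups ate a high-fat diet, and both received their doses as a suspension in 0.5% carboxymethylcellulose through a gastric probe. No group on an ordinary diet was analysed here, so the comparison is of mulberry leaf against vehicle within animals that all ate the high-fat diet. The labels give neither the age nor the sex of the rats. Whole liver was extracted, so a lower signal from fewer cells of a type cannot be told apart from less RNA in each cell.

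Cells display fragments of their own proteins on MHC class I molecules, which T cells inspect for signs of infection. The proteasome makes these fragments. Under interferon, the inducible catalytic subunits encoded by Psmb8, Psmb9 and Psmb10 take the place of the constitutive ones from Psmb5, Psmb6 and Psmb7, and the resulting particle is called the immunoproteasome. Psme1 and Psme2 encode the alpha and beta subunits of the PA28 cap, which opens the particle. The Tap1 and Tap2 proteins form the transporter that moves peptides into the endoplasmic reticulum, where tapasin, the product of Tapbp, holds an empty class I molecule beside the transporter. Beta-2-microglobulin, from B2m, is the light chain of every class I molecule. The class II route is separate: it loads peptides taken up from outside the cell, mainly in B cells, dendritic cells and macrophages, and Cd74 encodes the chain that blocks the class II groove until the molecule reaches the endosome. In liver, hepatocytes carry class I, while class II is mostly on Kupffer and other immune cells.

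Of the 10 genes, 4 lie side by side in the rat MHC. In the GRCr8 assembly of RefSeq, Tap2 (chr20:4638257-4652296), Psmb8 (chr20:4654068-4657049), Tap1 (chr20:4658171-4668543) and Psmb9 (chr20:4668952-4674421) together span 36.2 kb. Tapbp lies on the same chromosome at chr20:4958821-4967958. The other members are spread over the genome: Psme1 at chr15:33038962-33041849 and its partner Psme2 nearby at chr15:33048452-33053055, B2m at chr3:129549236-129555354, Psmb10 at chr19:50740808-50743292 and Cd74 at chr18:56527071-56536406. Tap1 is read from the minus strand and Psmb9 from the plus strand, and the table's start sites for them are 457 bases apart, so both genes are read outward from 1 shared intergenic stretch. These annotations are from RefSeq and not from the array.

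The promoters were searched because interferon regulatory factors are known to act on genes of this pathway through the interferon-stimulated response element. RefSeq promoter windows of 250 bases before to 50 bases after the start site were available for all 10 genes. The core searched, GAAANNGAA on either strand, occurred in 7 of the 10 windows, those of B2m, Tap1, Tap2, Tapbp, Psmb8, Psmb10 and Psme2. It occurred in 9.5% of the 27457 windows of the same length in the table. An NF-kB motif, GGGANTTTC on either strand, was in 3 of the 10 windows, those of B2m, Tap1 and Tapbp, and in 1.13% of all windows. The windows of Tap1 and Psmb9 share 44 bases. Both Tap1 matches lie in the intergenic stretch between these genes, outside the Psmb9 window. The stretches that hold the matches are given for the 7 genes that have one. The windows of Psmb9, Psme1 and Cd74 held neither motif. Each is 5′ to 3′ on the strand of its gene in GRCr8, with the matches to GAAANNGAA and GGGANTTTC (or their reverse complements) in capitals.
B2m, chr3:129549165-129549217, plus strand: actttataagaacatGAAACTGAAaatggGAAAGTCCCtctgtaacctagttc
Tap1, chr20:4668575-4668678, minus strand: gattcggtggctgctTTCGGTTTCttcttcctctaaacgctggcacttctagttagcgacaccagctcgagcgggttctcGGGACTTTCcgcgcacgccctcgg
Tap2, chr20:4652314-4652352, minus strand: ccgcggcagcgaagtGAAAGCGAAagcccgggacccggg
Tapbp, chr20:4967874-4967953, minus strand: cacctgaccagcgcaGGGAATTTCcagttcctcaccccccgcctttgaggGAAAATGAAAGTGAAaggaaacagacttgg
Psmb8, chr20:4657011-4657049, minus strand: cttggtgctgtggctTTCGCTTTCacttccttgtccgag
Psmb10, chr19:50743286-50743380, minus strand: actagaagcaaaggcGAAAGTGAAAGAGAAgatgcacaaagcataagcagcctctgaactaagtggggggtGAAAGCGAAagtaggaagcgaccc
Psme2, chr15:33052781-33052819, minus strand: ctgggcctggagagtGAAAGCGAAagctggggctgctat

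The Tapbp stretch and the first run of capitals in the Psmb10 stretch each hold a pair of overlapping matches to the core, and the Psmb10 stretch holds 3 matches in all. In B2m and Tap1 the core lies upstream of the NF-kB motif, and in Tapbp downstream of it. The STAT motif TTCNNNGAA was in 1 of the 10 windows, that of Psmb8, against 8.68% of all windows. A CCAAT box, searched on both strands, was in the windows of B2m, Psmb8, Psmb9 and Cd74, which is 4 of 10 against 37.7% of all windows. A match describes the letters of a window, and a window without one says only that those letters are not in it. The table's start site lay inside the annotated gene for several members, by 304 bases for Psme2, 135 for Cd74, 94 for B2m and 81 for Tapbp.

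**Figure D1:**
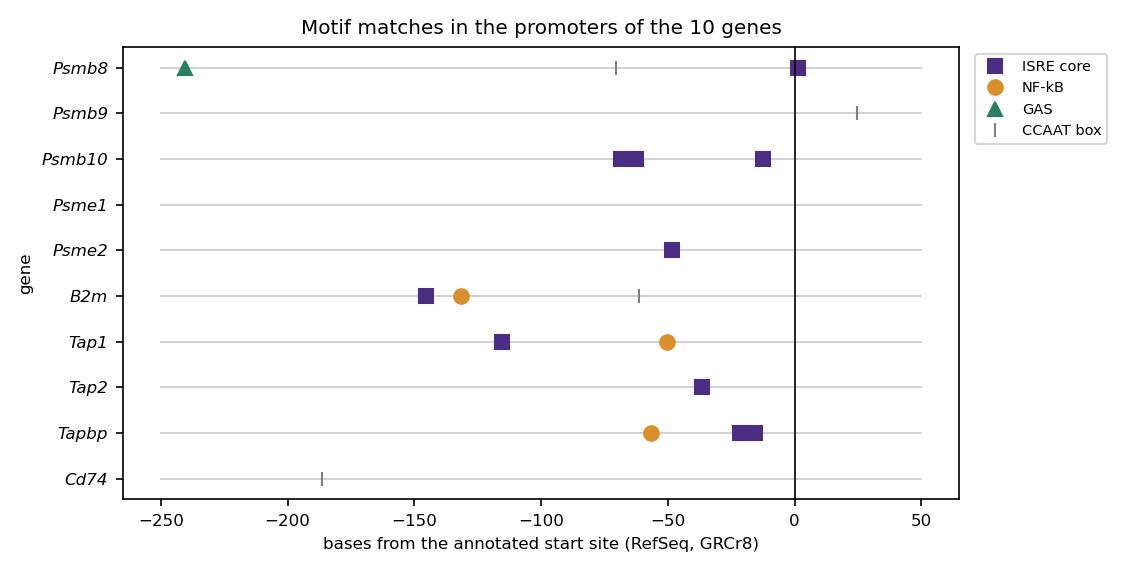
Positions of motif matches in the promoter windows of the 10 genes, 1 row per gene; the horizontal axis is the distance in bases from the RefSeq start site. Matches to GAAANNGAA (ISRE core) are seen in 7 rows, and GGGANTTTC (NF-kB) in those of B2m, Tap1 and Tapbp.

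Measures of array quality overlapped between the groups. The median intensity was 97.5 to 118 on the mulberry arrays and 101 to 114 on the control arrays (exact permutation test, two-sided p = 0.571). Pairs of arrays correlated at 0.957 to 0.975. The GAPDH control probe sets gave 3′ over 5′ ratios, a measure of RNA integrity and labelling, of 0.024 to 0.34 on the log2 scale with mulberry and -0.012 to 0.34 in controls (exact p = 0.913), with control rat 3 the lowest of the 10. The actin control probe sets gave higher 3′ over 5′ ratios, of 1.29 to 1.95 on the log2 scale with mulberry and 1.51 to 2.10 in controls (exact p = 0.405). Hepatocyte markers were bright in every rat, with albumin (Alb) at 28366 to 40663 in mulberry livers and 26591 to 40742 in control livers.

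None of the 10 genes passed the test of a difference between mulberry and control livers. On log2(intensity + 16), the scale of all differences given here, 8 of the 10 genes had a higher mean with mulberry and 2 a lower one, and their median difference was +0.044. Over all 10328 genes tested, 51.3% had a higher mean and the median was +0.0035. Over all 18625 probe sets, 52.5% were higher. The count of 8 rested on single rats: it was 4 without control rat 5, 6 without mulberry rat 2, and 10 without control rat 3 or without mulberry rat 4. The members' median difference was -0.0099 without control rat 5 and +0.14 without control rat 3. With limma, 0 of the 12 member probe sets had an adjusted p under 0.05, against 0.0% of all probe sets, and 0 of 12 had an unadjusted p under 0.05, against 1.74% of all. The mulberry and control values overlapped in each of the 13 member probe sets, while 0.344% of all probe sets had groups that did not overlap. The adjusted p was 0.99994 (limma, Benjamini-Hochberg) for every member.

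**Figure D2:**
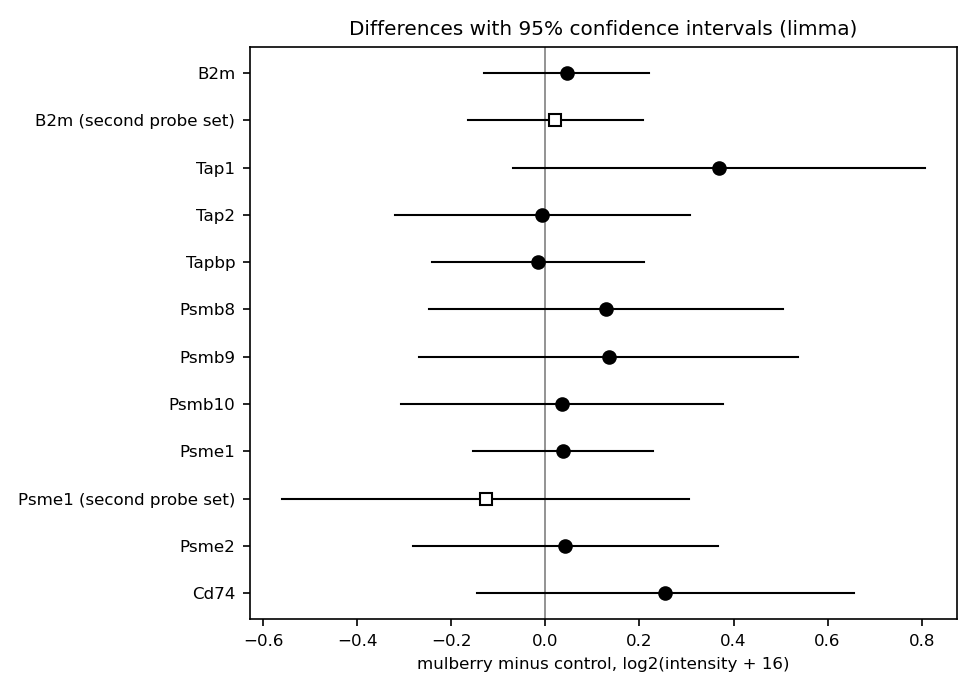
Difference between mulberry and control livers on log2(intensity + 16) for the 12 tested member probe sets; points are limma estimates and bars their 95% intervals. Every interval includes 0, and Tap1 at +0.37 lies farthest from it.

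The genes of the inducible catalytic subunits had overlapping values in the groups, with differences of at most 0.13. Psmb8, whose product replaces that of Psmb5, had intensities of 3339, 3671, 2359.8, 2663 and 2892 in mulberry rats 1 to 5, against 2466, 2020.5, 3894, 3109 and 2356 in control rats 1 to 5. The controls held both the highest and the lowest of the 10 values, and the mulberry rats lay within them. The means were 2985 ± 524 with mulberry and 2769 ± 742 in controls (SD, n = 5 each), a difference of +0.13 ± 0.17 (SE; 95% interval -0.25 to 0.50). It was +0.026 without control rat 2 and +0.26 without control rat 3.

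Psmb9, whose product replaces that of Psmb6 and is encoded across the shared intergenic stretch from Tap1, read 1658, 1900.0, 1501, 1398 and 1467 with mulberry, against 1487, 1386, 2021, 1663 and 871 in controls. Control rat 5 stood well below every other rat, and control rat 3 was again the highest. The difference was +0.13 ± 0.19 (95% interval -0.27 to 0.54), or -0.042 without control rat 5. The coefficient of variation was 12.6% with mulberry and 28.3% in controls. Whether the spreads differ was not tested.

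Psmb10, whose product replaces that of Psmb7, read 1061, 1082, 944, 786 and 991 with mulberry, against 922, 1029, 1233, 984 and 647 in controls. The order of the extremes was the same, with control rat 3 highest and control rat 5 lowest. The difference was +0.035 ± 0.16 (95% interval -0.31 to 0.38), and it was -0.098 without control rat 5. For these subunit genes the intervals on the linear scale ran from 0.831 to 1.45-fold for Psmb9, from 0.843 to 1.42-fold for Psmb8 and from 0.809 to 1.30-fold for Psmb10.

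The inducible subunits were also set against the constitutive ones that they replace, as a log2 ratio within each rat centred over the 10 rats, a comparison added after the values were seen. The ratio of Psmb8 to Psmb5 was 0.081 ± 0.23 with mulberry and -0.081 ± 0.17 in controls (SD, n = 5 each; exact permutation test, two-sided p = 0.254). The ratio of Psmb10 to Psmb7 was -0.018 ± 0.27 with mulberry and 0.018 ± 0.30 in controls (n = 5 each; exact p = 0.825). Mulberry rat 4 and control rat 5 had the lowest ratios of Psmb10 to Psmb7, at -0.43 and -0.45. Psmb6 had no probe set with a single symbol, so Psmb9 has no such ratio here.

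The activator genes also had small differences. Psme1, for the alpha subunit of PA28, read 9348, 8562, 8056, 9265 and 8494 with mulberry, against 8533, 7886, 9474, 9405 and 7441 in controls. The range was narrow, with control rats at both ends. The difference was +0.037 ± 0.089 (95% interval -0.15 to 0.23). The other probe set of Psme1 was dim and of the opposite sign, at 105 ± 22.0 with mulberry and 116 ± 30.2 in controls (SD, n = 5 each), a difference of -0.13 ± 0.20. Psme2, for the beta subunit, read 3442, 3678, 2823, 3188 and 3186 with mulberry, against 2618, 2612, 4308, 3880.2 and 2736 in controls. All 5 mulberry rats lay between the lower 3 and the upper 2 controls. The difference was +0.043 ± 0.15 (95% interval -0.28 to 0.37), with coefficients of variation of 9.80% with mulberry and 24.9% in controls.

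Of the genes for peptide transport and loading, Tap1 had the largest difference among all members, and it did not pass. Its brighter probe set read 572, 427, 545, 294 and 489 in mulberry rats 1 to 5, against 335, 477, 258, 291 and 421 in control rats 1 to 5. Mulberry rats 1, 3 and 5 were above every control, and mulberry rat 4 was among the 3 lowest of the 10. The means were 465 ± 111 with mulberry and 356 ± 91.0 in controls (SD, n = 5 each). The difference was +0.37 ± 0.20 (95% interval -0.068 to 0.81), or 1.29-fold with an interval of 0.954 to 1.75-fold, and the exact permutation test gave a two-sided p of 0.111. Its unadjusted limma p was 0.0913, and it was 0.0139 without mulberry rat 4 and 0.0353 without control rat 2. The dimmer probe set of Tap1, at 16.6 to 49.2 with mulberry and 4.39 to 46.2 in controls, was under the filter in both groups.

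For the other transporter subunit and for tapasin the differences were close to 0. Tap2 read 193, 200.4, 210.2, 161 and 251 with mulberry, against 217, 174, 241, 208 and 179 in controls, a difference of -0.0070 ± 0.14 (95% interval -0.32 to 0.31). Tapbp, for tapasin, read 478, 523, 453, 474 and 566 with mulberry, against 517, 464, 541, 512 and 484 in controls, a difference of -0.015 ± 0.10 (95% interval -0.24 to 0.21). In both genes mulberry rat 5 was the highest of the 10 and the groups covered much the same range. The signs of these small differences turned when single rats were left out, over ranges of -0.081 to 0.066 for Tap2 and -0.061 to 0.017 for Tapbp.

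B2m was read by a pair of bright probe sets that gave like answers. The brighter read 34605, 29009, 29823, 34598 and 30131 with mulberry, against 29324, 28492, 35146, 31429.8 and 28884 in controls. Mulberry rats 1 and 4 and control rat 3 were the highest of the 10, and the remaining rats of both groups lay together below them. The difference was +0.045 ± 0.081 (95% interval -0.13 to 0.22) on this probe set and +0.021 ± 0.086 on the other. On the linear scale the first interval runs from 0.914 to 1.17-fold, the tightest of the 10 genes.

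Cd74, the class II member of the set, read 2186, 1481, 1238, 2280.3 and 2281 with mulberry, against 1343, 1481, 2056, 1548 and 1350.0 in controls. Mulberry rats 1, 4 and 5 were above all controls, while mulberry rat 3 was the lowest of the 10. The means were 1893 ± 496 with mulberry and 1556 ± 293 in controls (SD, n = 5 each). The difference was +0.26 ± 0.19 (95% interval -0.15 to 0.66), or 1.19-fold with an interval of 0.904 to 1.58-fold, and the exact permutation test gave a two-sided p of 0.286. The unadjusted limma p was 0.193, and 0.0331 without mulberry rat 3.

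**Figure D3:**
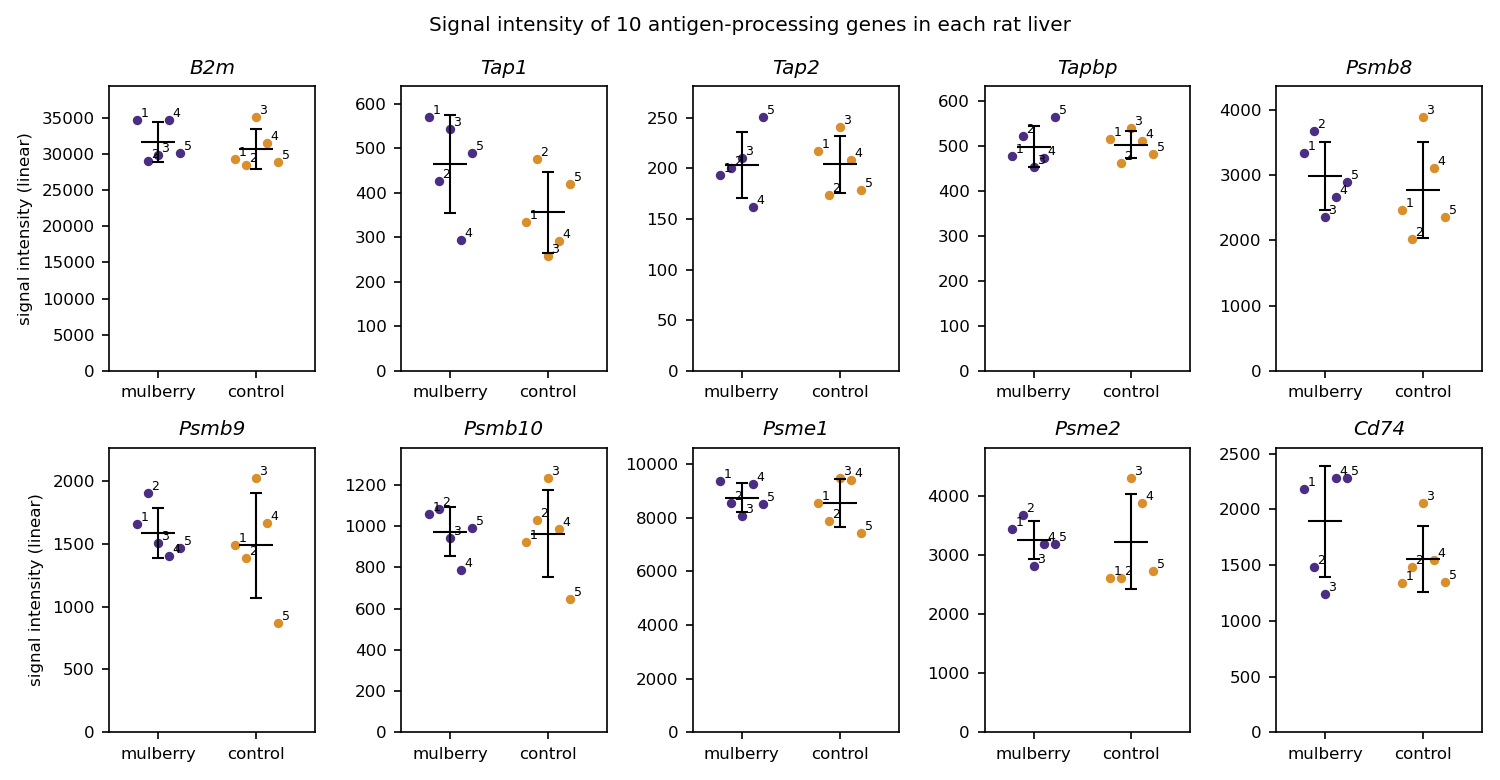
Intensity of the 10 genes in each liver, 1 panel per gene with its own vertical axis; mulberry rats are on the left and control rats on the right, and bars mark the mean ± SD (n = 5 each). The groups overlap in every panel, with control rat 3 at the top of the panels of the immunoproteasome and activator genes.

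The highest and lowest values of the members recurred in a few rats. As each rat has 1 array, rat and array cannot be told apart. Control rat 3 was the highest of the 10 rats for 6 of the 10 genes, which were B2m and all 5 immunoproteasome and activator genes, and the highest control for 9 of the 10. The exception was Tap1, for which it was the lowest of all rats. Control rat 5 was the lowest of all for Psmb9, Psmb10 and Psme1, and control rat 2 for B2m, Psmb8 and Psme2. The mean deviation of the 5 immunoproteasome and activator genes from their own means was 0.15, 0.22, -0.11, -0.07 and 0.01 in mulberry rats 1 to 5, against -0.11, -0.18, 0.36, 0.15 and -0.40 in control rats 1 to 5. The mulberry rats thus lay within the range set by control rats 3 and 5. Without both of these controls, a choice made after the values were seen, 9 of the 10 genes had a higher mean with mulberry and 0 of 12 probe sets had an unadjusted p under 0.05 (limma). In that fit 336 of all 18625 probe sets had an unadjusted p under 0.05, and the median difference over all 18625 was -0.0049. The share of all genes with a higher mean in that fit is not given here.

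Several other measures were extreme in control rat 3. This rat, with the lowest GAPDH ratio, also had the highest summed intensity of the other 20S proteasome subunits, 95589 against 59010 to 79941 in the remaining 9 rats, and the highest macrophage marker sum. On the actin 3′ over 5′ ratio, also on the log2 scale, it was at 1.51, above the lowest, 1.29 in mulberry rat 4. Control rat 5 was not extreme on the proteasome or macrophage sums, at 68593 and 13122. It did have the highest actin ratio of the 10 rats, 2.10 on the log2 scale. Its summed intensity was also the lowest for the interferon-induced genes, 25705, and for the markers of T and NK cells, 671. The part of RNA integrity and of cell makeup in the members' values was not tested. The spread over the 10 rats was itself unequal among the genes: the SD on the log2 scale was 0.39 for Tap1, 0.35 for Cd74, 0.33 for Psmb9 and 0.31 for Psmb8, but 0.12 for B2m and Psme1 and 0.10 for Tapbp. The median over all genes tested was 0.23. Tapbp thus had a smaller spread than all but 3.95% of the genes tested, and Tap1 a larger one than 85.3% of them.

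**Figure D4:**
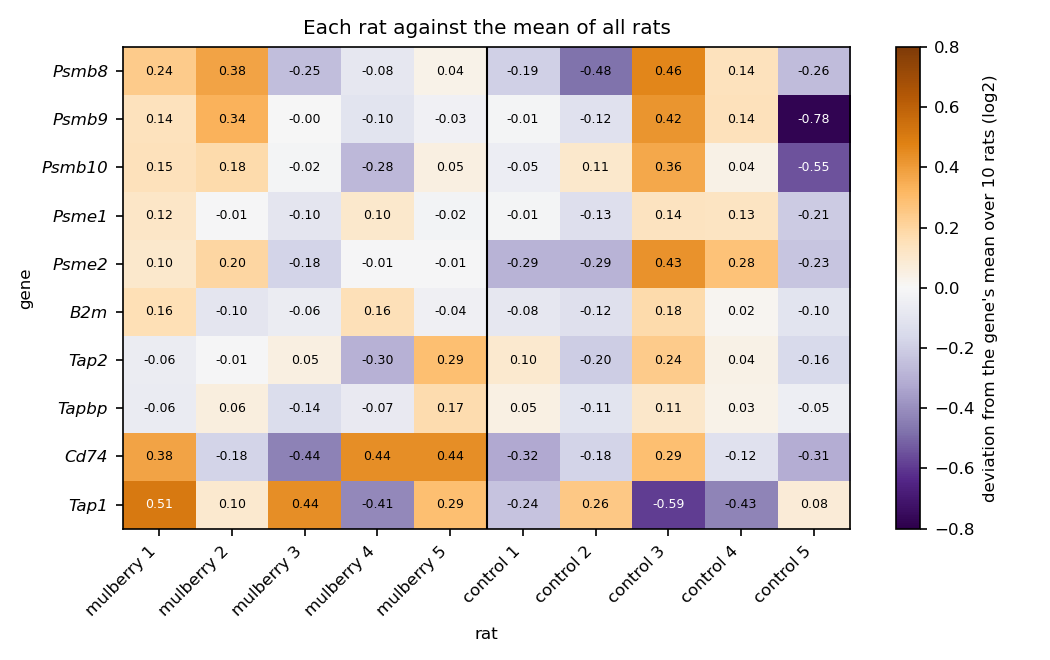
Deviation of each gene from its own mean over the 10 rats on log2(intensity + 16), with the mulberry rats in the left columns and the control rats in the right ones. Control rat 3 is high for 9 genes and low for Tap1, and control rat 5 is low for the immunoproteasome genes.

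Across the 10 rats the immunoproteasome and activator genes moved together. The 10 pairs among the 5 genes had Pearson correlations of 0.53 to 0.93 (n = 10 rats), with a median of 0.72. Within the 5 mulberry rats these correlations ran from -0.21 to 0.98 and were above 0 for 8 of 10 pairs, and within the 5 controls they ran from 0.55 to 0.95. Without the 2 rats farthest from the median of the first gene of a pair, the 10 correlations were 0.32 to 0.88. The closest pair was Psmb8 and Psme2, with r = 0.93 and a Spearman rho of 0.92, and r = 0.88 without the 2 rats farthest from the median of the first gene. Psmb9 and Psmb10 had r = 0.91 and a rho of 0.71, with r = 0.61 without the 2 farthest rats, which were control rats 3 and 5. This relation thus leaned in part on those rats, and within the 5 mulberry rats alone r was 0.80. All values of a rat come from 1 array, so a pair of genes shares that array's RNA and scaling.

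Tap1 had the lowest correlations with the other members, and they rested on a few control rats. Its Pearson correlation with the other 9 was below 0 in each case, from -0.51 to -0.027 over the 10 rats. Within the controls it was -0.97 to -0.54, and within the mulberry rats it was -0.38 to 0.74 and above 0 for 5 of 9. Without control rats 3 and 4, the 2 farthest from the Tap1 median, it was -0.19 to 0.47 and above 0 for 5 of 9. The Spearman rho with Psmb10 was 0.091 over all 10 rats. Tap1 shares its intergenic stretch with Psmb9, but Psmb9 was highest and Tap1 lowest in control rat 3. Over all 45 pairs of members the median correlation was 0.461, and 80.0% of pairs were above 0. Of these pairs 26.7% reached 0.6, against 5.81% of the 53328628 pairs of tested genes, whose median was 0.004. These shares are a description of 10 arrays. No such share is given here for the other proteasome genes.

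The genes whose pattern over rats was most like that of the members were found by their correlation with the mean of the 10 standardized members, among 10318 other genes. They were Sparc, for a matrix protein (r = 0.956, rho = 0.964), Cdca5, for a cohesin regulator (r = 0.955), B9d1, for a protein of the ciliary base (r = 0.936), Coa3, for an assembly factor of cytochrome c oxidase (r = 0.933), and Marcks, for a substrate of protein kinase C (r = 0.921), each over n = 10 rats. Sparc, for example, read 1339, 1222, 1056, 1184 and 1314 with mulberry, against 986, 898, 1410, 1232 and 915 in controls, so it too was highest in control rat 3. Cdca5 was dim, at 52.5 to 90.1 over the 10 rats, near the filter level of about 61.1. Among the members, Psmb8 had the highest correlation with this mean, 0.887, and Tap1 the lowest, -0.23. Some other proteasome genes followed this mean too, with Psmd6 at 0.84, Psma5 at 0.77 and Psmb4 at 0.75. These were above the members Cd74, at 0.66, and B2m, at 0.65, which are themselves part of the mean. Not all proteasome genes did so, with Psme4 at -0.69 and Psmd12 at -0.49.

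The class I heavy chains, which pair with the B2m product, came from the RT1 genes, the rat MHC. There were 31 probe sets with a single RT1 symbol, of class I or class II, of which 29 were tested. RT1 genes differ between haplotypes, and those of class I include near-identical genes. A probe set may read several genes or miss one allele, so these values are uncertain for any single gene. RT1-A read 60.3, 3057, 1421, 3839 and 3004 in mulberry rats 1 to 5, against 2278, 2559.9, 4101, 3677 and 1243 in control rats 1 to 5. RT1-CE16 read 1031, 211, 672, 137 and 146 with mulberry, against 186, 179.9, 266, 174 and 678 in controls. Mulberry rat 1 was thus far below every other rat on the one and the highest on the other.

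The class II beta chain gene RT1-Bb showed the same kind of contrast between its own probe sets. One read 4.29, 474, 146, 567 and 819 with mulberry, against 397, 368, 733, 431 and 175 in controls, and another read 1068, 24.1, 308, 84.4 and 21.1 with mulberry, against 33.8, 52.7, 4.36, 51.6 and 293 in controls. Rats that were low on the first were high on the second. Mulberry rat 1 was the lowest of the 10 rats on 12 of the 29 tested RT1 probe sets and the highest on 13. On 16 of the 29 the highest rat exceeded the lowest by more than 3-fold. Some of these were very dim in a rat, which enlarges the ratio. An example is a probe set of RT1-CE5 at 1.0 in mulberry rat 1, the lowest value on that array. Others were bright, such as RT1-CE12 at 1060 to 14431. The share over all tested probe sets is not given here. The tested member probe sets stayed between 1.23 and 2.43-fold.

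**Figure D5:**
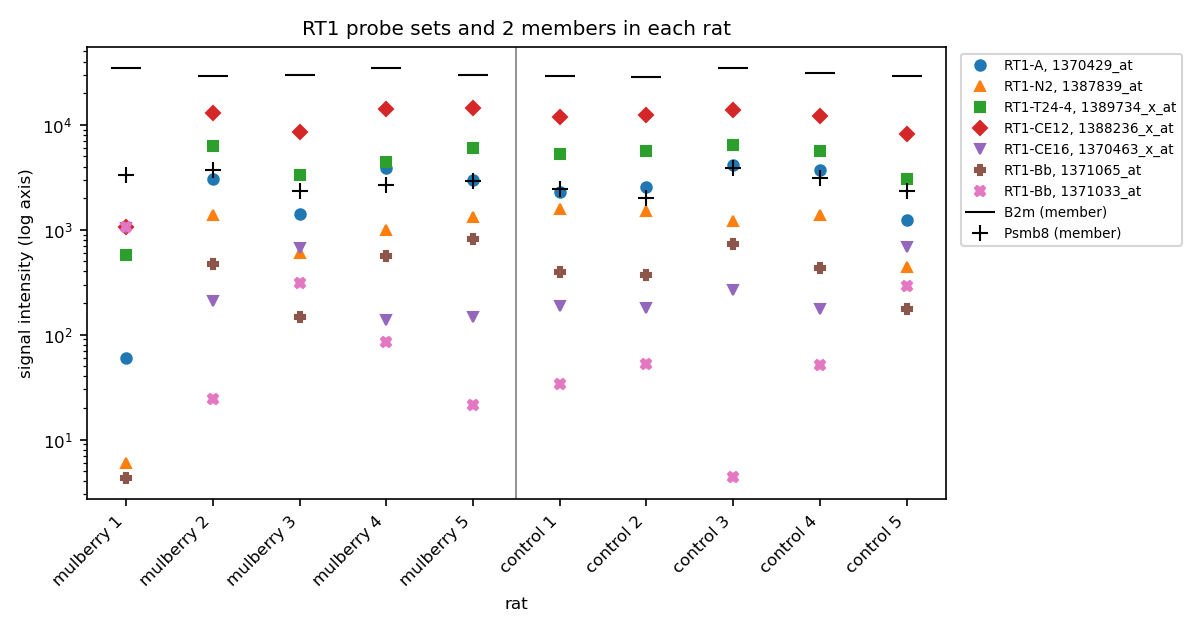
Intensity on a log axis of selected RT1 probe sets and of the members B2m and Psmb8 in each of the 10 livers, mulberry rats to the left of control rats. Mulberry rat 1 reads 60.3 on RT1-A and 1031 on RT1-CE16, while all tested member probe sets lie within 2.43-fold.

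The heavy chains and the loading factors formed a list of 17 tested genes. Of these, 8 were higher and 9 lower on average in mulberry livers, with a median of -0.020 and a mean of -0.20. An unadjusted p under 0.05 (limma) was found for 0 of the 17, beside 1.74% of all probe sets. Several RT1 genes of this list were read at very different levels in single rats. RT1-A was at -0.97 ± 0.87. RT1-N2 was at -1.25 ± 0.93 but at -0.14 without mulberry rat 1, and RT1-T24-4 at -0.67 ± 0.52 but at -0.062 without that rat. Calreticulin (Calr), a chaperone of the loading complex, was at +0.16 ± 0.11.

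The class II list had more genes with a higher mean. Of 13 tested, 10 were higher and 3 lower with mulberry, with a median of +0.15 and a mean of +0.070, beside a median of +0.0035 over all genes. The median was 0.064 without mulberry rat 5 and 0.21 without control rat 3. RT1-DMb, for a chain of the DM molecule that removes the Cd74 fragment from class II, read 964, 661, 613, 854 and 723 with mulberry, against 449, 443, 798, 539 and 615 in controls. Control rats 1, 2 and 4 lay below every mulberry rat, control rat 5 at the lower end of the mulberry range and control rat 3 inside it. The difference was +0.43 ± 0.18 with an unadjusted limma p of 0.0300 and an adjusted p of 0.99994. That unadjusted p was 0.0819 without mulberry rat 1 and 0.0782 without control rat 2. Its partner RT1-DMa was at +0.32 ± 0.21, or +0.14 without mulberry rat 4, and the beta chain gene RT1-Db1 at +0.28 ± 0.19, or +0.14 without mulberry rat 1. RT1-Bb was at -0.74 ± 0.81 on the brighter of its probe sets and at +1.03 on the other. Ciita, the master regulator of class II genes, was at +0.15 ± 0.19.

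The standard proteasome showed list medians close to 0. Of the 7 tested genes for constitutive catalytic subunits, assembly factors and other regulators, 4 were higher and 3 lower with mulberry, with a median of +0.0053, and Psmb7 was at +0.071 ± 0.12. Psme4, for the PA200 activator, was at +0.091 ± 0.15, and Psmf1, for a proteasome inhibitor protein, at +0.032 ± 0.080. Of the 11 other 20S core genes 7 were higher and 4 lower (median +0.028), with Psma3 at -0.12 ± 0.11, Psma4 at +0.075 ± 0.081 and Psma6 at +0.056 ± 0.095. Of the 17 genes of the 19S cap 8 were higher and 9 lower (median -0.0021), with Psmd6 at +0.19 ± 0.13, Psmd3 at -0.10 ± 0.10 and Psmd14 at -0.085 ± 0.097. No gene of these lists had an unadjusted p under 0.05 (limma), beside 1.74% of all probe sets.

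Interferon signalling and its targets were listed because interferon induces the members. Of 17 signalling genes 13 were higher and 4 lower with mulberry (median +0.058), and 1 of 17 had an unadjusted p under 0.05, beside 51.3% higher among all genes and 1.74% of all probe sets under 0.05. This was Irf7, for a factor that switches on type I interferon genes, at 638, 642, 612, 683 and 1094 with mulberry, against 649, 569, 601, 496 and 368 in controls. Mulberry rat 5 was far above the rest, control rat 5 was the lowest, and the other 8 rats lay between 496 and 683. The difference was +0.43 ± 0.18 with an unadjusted limma p of 0.0371. It was +0.28 without mulberry rat 5 (limma, unadjusted p of 0.102) and +0.31 without control rat 5 (0.104). The kinase gene Jak1 was at +0.13 ± 0.077 and the phosphatase gene Ptpn2 at -0.19 ± 0.13. Nlrc5, the transactivator of class I genes, was at +0.25 ± 0.18 and Irf1, a factor that binds the response element, at +0.24 ± 0.23.

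Of 20 interferon-induced genes outside the member set, 18 were higher and 2 lower with mulberry, with a median of +0.20. Among all genes tested 51.3% were higher. The median of the 20 genes was +0.10 without control rat 5, and +0.026 without control rats 3 and 5. Their summed intensity overlapped between the groups, at 29099 to 36723 with mulberry and 25705 to 33647 in controls (exact permutation test, two-sided p = 0.429). Mx1, for an antiviral GTPase, read 248, 265, 234, 231 and 395 with mulberry, against 135, 243, 170.0, 226 and 134 in controls. Only control rat 2 lay within the mulberry range, and mulberry rat 5 was the highest. The difference was +0.57 ± 0.20 with an unadjusted limma p of 0.0137 and an adjusted p of 0.99994. Mx2 was at +0.67 ± 0.32, or +0.41 without control rat 5 and +0.12 without control rats 3 and 5, and the chemokine gene Cxcl11 at +0.20 ± 0.097. Of the 10 members themselves, only Tap1 and Cd74 had a difference above this list's median.

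Markers of the cells that carry these genes overlapped between the groups. The 9 tested macrophage and Kupffer cell markers had 8 higher and 1 lower mean with mulberry (median +0.14). Their summed intensity was 14511, 17472, 9680, 20124 and 18844 in mulberry rats 1 to 5, against 11097, 12641, 21194, 13121 and 13122 in control rats 1 to 5 (exact permutation test, two-sided p = 0.484). Mulberry rat 3, lowest for Cd74, was lowest here, and control rat 3, highest of the controls for Cd74, was highest here. Not all rats kept this order. Mulberry rat 2 had a sum of 17472 with Cd74 at 1481, and mulberry rat 1 a sum of 14511 with Cd74 at 2186. Cd68, for a lysosomal glycoprotein of macrophages, was at +0.39 ± 0.18, while Marco and Vsig4 had no probe set with a single symbol.

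Of 5 B cell markers with a probe set 2 were tested, and their sum was 335 to 544 with mulberry and 311 to 528 in controls. Cd79b, Cr2 and Blk were under the filter. Of 11 markers of T and NK cells 7 were tested, with sums of 807 to 909 with mulberry and 671 to 899 in controls. Of 5 dendritic cell markers 3 were tested, with sums of 383 to 582 with mulberry and 443 to 521 in controls, and Flt3 and Clec9a were under the filter. Of 3 neutrophil markers S100a8 and S100a9 were tested, and both had lower means with mulberry. Their sums were 114 to 273 with mulberry and 268 to 365 in controls (exact p = 0.0159). This was the smallest exact p among the marker sums, and it was not adjusted for their number. S100a9 had an unadjusted limma p of 0.00136, and the adjusted p was 0.99994 for both genes. S100a8 was dim with mulberry, at 54.4 ± 24.0. The other neutrophil marker, Csf3r, was under the filter, at 24.7 ± 17.9 with mulberry and 20.4 ± 10.5 in controls (SD, n = 5 each). The 9 hepatocyte markers summed to 241482 to 291859 with mulberry and 236653 to 279718 in controls. The part of these cell types in the members' values was not tested.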

How the data were processed

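Total RNA from whole liver was hybridised to 1 Affymetrix rat array per animal. The deposited values are intensities on a linear scale, 1 per probe set, made by the authors. The submitters' processing notes name MAS5 and affy, with no version and no role, and they do not state a scaling target. In the deposited values the 2% trimmed mean was 500.0 and the lowest value 1.0 on each of the 10 arrays. Each intensity is one number per rat, so the number of arrays limits the precision. Groups came from the labelled dose. The labels do not say that rats with the same number were paired.

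The intensities were used as deposited and taken as log2(intensity + 16). After removal of 57 array control probe sets, the 18625 of 31042 probe sets with a mean log2 above the 40th percentile (6.27) entered limma 3.58.1 in R 4.3.3 (lmFit, eBayes with a variance trend, Benjamini-Hochberg over all 18625, threshold 0.05). Single summed or ratio values were tested by exact permutation over the 252 assignments of rats, whose smallest two-sided p is 0.00794. A gene was represented by its probe set with the highest mean log2. Probe sets were named from the platform annotation: 20826 have 1 symbol, 436 several and 9780 none. Promoter windows are from RefSeq (GRCr8). The response element and NF-kB motifs searched are 1 base shorter than the forms planned, a change made after the longer forms had been searched; the more specific planned forms are not reported here. In pathway lists the text named the 3 genes with the smallest unadjusted p of each, and some others chosen after their values were seen (Ciita, Nlrc5, Irf1, Cd68, and the RT1 probe sets). The 10 genes, the lists and the tests were chosen with earlier results of these data known. The alternatives changed the pseudocount (1 or 64), the filter (none, or the 60th percentile), the scaling (quantile or median), the variance trend, the weights of arrays, the block by replicate number, the probe set of a gene, and the rats included. The fit was tested on simulated data.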

Additional observations from a re-analysis of the deposited data

Results flagged for a closer look

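A rat stood apart from the other 4 of its group in 8 of the 68 groups checked over 34 probe sets (Dixon's test, critical value 0.71 for 5 rats). The groups share the same arrays and are not independent, so this count cannot be set against chance. Not every RT1 probe set was among the 34. Among the members a rat stood apart only on the dim probe set of Psme1, with mulberry rat 2 at 67.8 below the other mulberry rats. RT1-N2 was low in mulberry rat 1, at 5.94, and in control rat 5, at 439, each far below its group. RT1-T24-4 was low in the same rats, at 577 in mulberry rat 1 and 3069.9 in control rat 5. Mulberry rat 5 was the lowest of its group for Psme4, at 2106, and the highest for Irf7, at 1094, and for Mx1, at 395.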

How the results depend on the processing

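The count of probe sets with an adjusted p under 0.05 was 0 with limma in the reported fit and in all alternative fits, including each rat left out in turn (0 to 0). The unadjusted count was 325 in the reported fit and 487 with array weights. The smallest adjusted p of any fit was 0.113, without control rat 3. Member genes with a higher mean with mulberry numbered 10 with array weights. With array weights the differences of Tap2 and Tapbp turned to 0.086 and 0.024 and that of Psme4 to -0.038. Psme1 was at -0.045 as the mean of its probe sets and at -0.13 on its other probe set. Without control rats 3 and 5, chosen after seeing the data, Tap2 was at 0.016, Tapbp at 0.00059, Psmb10 at -0.015 and Psmd14 at 0.015. Leaving out single rats turned the sign of these differences: Tap2 (-0.081 to 0.066), Tapbp (-0.061 to 0.017), Psmb9 (-0.042 to 0.26), Psmb10 (-0.098 to 0.13), Psme1 (-0.011 to 0.076), Psme2 (-0.025 to 0.15), the second B2m probe set (-0.019 to 0.061), Psme4 (-0.025 to 0.19), Psmb7 (-0.0075 to 0.16) and Psma6 (-0.011 to 0.10). The cause was not tested. So did the medians of the members (-0.0099 to 0.14), class I (-0.13 to 0.057), constitutive subunits (-0.0075 to 0.034), other 20S (-0.056 to 0.12) and 19S genes (-0.038 to 0.023). Tap1 (0.27 to 0.52), Cd74 (0.18 to 0.40) and Psmb8 (0.026 to 0.26) did not turn. With a 60th percentile filter, 11 of the 12 member probe sets were tested. With the replicate number as a block, 0 probe sets had an adjusted p under 0.05 and 286 an unadjusted one, and same-numbered rats did not deviate together (r -0.33 to 0.096), so the numbers were not taken as pairs. Under that block the unadjusted p was 0.0863 for Irf7 and 0.0570 for RT1-DMb.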

Other observations

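On the RT1 probe sets, the low and high rats recurred. On 9 of the 29 tested RT1 probe sets mulberry rat 1, mulberry rat 3 and control rat 5 all read below the other 7 rats, on 4 they all read above them, and on 16 they overlapped with them. RT1-CE12 is an example of the first kind, at 1060.2, 13030.1, 8481, 14273 and 14431 in mulberry rats 1 to 5, against 11941, 12281, 13721, 12199.9 and 8111 in control rats 1 to 5. RT1-Da, the class II alpha chain gene, read 2608, 2033, 1162, 2199 and 2974 with mulberry, against 1543, 1503, 3466, 1979 and 1494 in controls. The tested probe sets of the members varied within 2.43-fold over the same rats. This pattern was seen after the values were read. It was not tested.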
